A study of Mus musculus with 6 samples.

Results

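The 10 genes described here are the 4 alpha-actinins of the mouse genome (Actn1, Actn2, Actn3 and Actn4) and 6 genes of skeletal muscle, namely the regulators Myog and Myod1 and the genes of the contractile cell Ckm, Acta1, Tnnt3 and Ttn. They were taken by name from a table of 52636 genes, to ask whether Actn3 moved together with muscle genes between tuft-like and non-tuft-like medullary thymic epithelial cells (mTEC), and they were chosen by name with the read counts of this same comparison already in view. For that reason their values are given as a description and carry no test. Of the 10 genes, 9 passed the filter on low counts and entered the fit, and Myod1 did not. RNA was sequenced from 3 libraries of each population, both sorted from the thymus of C57BL/6 mice at 6 weeks of age with no genetic change or treatment named. Both were positive for binding of the lectin UEA1, low for MHCII and negative for CD80, Sca1 and CD63. Tuft-like mTEC were positive for CD117 and CD66a, whereas non-tuft-like mTEC were negative for both, and the study describes the latter as a likely mixture of mTEC types. No source used here says whether the 3 libraries of a population came from separate animals, so the errors given measure the spread between libraries, which may be technical.

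Alpha-actinins are rod-shaped proteins that pair head to tail and tie actin filaments together. Actn1 and Actn4 do so in stress fibres, cell cortex and adhesions of most cells, whereas Actn2 and Actn3 anchor thin filaments in the Z-disc of striated muscle, Actn3 in fast fibres. The thymic medulla displays genes of many peripheral tissues to developing T cells, partly through Aire in mature mTEC and partly through rare mimetic cells that adopt the programs of other cell types, among them muscle mimetic cells driven by Myog and tuft mimetic cells driven by Pou2f3.

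The depth on genes ranged from 20097617 to 48369825 counts per library. On a tuft list, 8 of 8 genes were higher in tuft-like mTEC (against 1.16% of all genes tested). The list was chosen with earlier results of these data known, so this count is a description and no test of the labels. Among the 8 was Dclk1, a kinase that marks tuft cells, at 1585 ± 290 against 28.5 ± 7.27 CPM (mean ± SD, n = 3 libraries). Of these calls, that of the regulator Pou2f3 was lost without non-tuft-like replicate 2. Levels are in CPM, read counts brought to a common library size by TMM scaling. The libraries differed in their background. The counting kept a row for reads that met no annotated feature, reads in introns among them. The share of this row in the reads of all rows was 34.4%, 36.6% and 52.5% in non-tuft-like replicates 1 to 3. In tuft-like replicates 1 to 3 it was 61.6%, 47.6% and 19.7%. Reads left unassigned for other reasons are not in this share. As a measure of background on exons, the 1134 olfactory receptor genes that code for protein were taken as genes of little transcription, although mTEC may transcribe some of them, and they carried 5.70, 9.34 and 13.5 counts per exon kb in the non-tuft-like and 15.2, 12.4 and 2.54 in the tuft-like libraries. Tuft-like replicate 3 stood apart, with 13403 of the 32496 genes tested at 3 counts or fewer, against 476 to 5835 in the other 5 libraries. Values without it are given beside several results.

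Of the 9 genes in the fit, Actn3 had the lowest log2 fold change, and Ckm, described below, came next. The Actn3 gene (ENSMUSG00000006457) lies on the minus strand of chromosome 19 at 4861216 to 4877909 (mm10), and no exon of another annotated gene overlaps its exons. It stood at 170, 235 and 178 CPM in the non-tuft-like libraries and at 6.16, 6.11 and 5.69 CPM in the tuft-like libraries. The groups lay far apart, and the tuft-like libraries were within 1 CPM of each other. The means were 194 ± 35.6 and 5.99 ± 0.258 CPM, a log2 fold change (tuft-like over non-tuft-like) of -5.02 ± 0.31 (SE), so that tuft-like mTEC held 3.09% of the non-tuft-like level. With each library left out in turn the log2 fold change lay between -5.12 and -4.86. Actn3 was the only 1 of the 9 genes in the fit with a false discovery rate (FDR) under 0.05 (edgeR's quasi-likelihood test, Benjamini-Hochberg adjustment over all genes tested), against 2.11% of all genes tested (1.16% higher and 0.951% lower in tuft-like mTEC), and nothing is read from that count since the contrast was in view when the genes were chosen. In bulk RNA, fewer cells with a transcript and less of it per cell cannot be told apart.

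The other alpha-actinins showed no such separation. Actn1, an alpha-actinin of adhesions and stress fibres (chromosome 12, 80167547 to 80260371, minus strand), stood at 26.1, 36.9 and 37.8 CPM in the non-tuft-like and 21.3, 32.1 and 29.5 CPM in the tuft-like libraries. Actn4, the abundant non-muscle form (chromosome 7, 28893248 to 28962340, minus strand), stood at 598, 477 and 430 CPM and at 320, 464 and 577 CPM. For both genes the libraries of the groups overlapped, and the log2 fold changes of -0.28 ± 0.35 for Actn1 and -0.14 ± 0.32 for Actn4 were smaller than their errors. With 1 library left out that of Actn4 lay between -0.39 (without tuft-like replicate 3) and 0.06 (without tuft-like replicate 1), and that of Actn1 between -0.45 (without non-tuft-like replicate 1) and -0.12 (without tuft-like replicate 1). Actn2, the sarcomeric form of heart and all skeletal fibres (chromosome 13, 12269426 to 12340760, minus strand), stood at 0.158, 3.64 and 5.498 CPM against 5.99, 3.01 and 0.166 CPM. It was low in 1 library of each group, the groups overlapped fully, and the log2 fold change of -0.02 ± 1.503 ranged from -0.96 without tuft-like replicate 1 to 0.66 without non-tuft-like replicate 3. Actn3 was thus the alpha-actinin that separated the groups, and its Z-disc partner in muscle, Actn2, was near the bottom of the range in both.

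**Figure D1:**
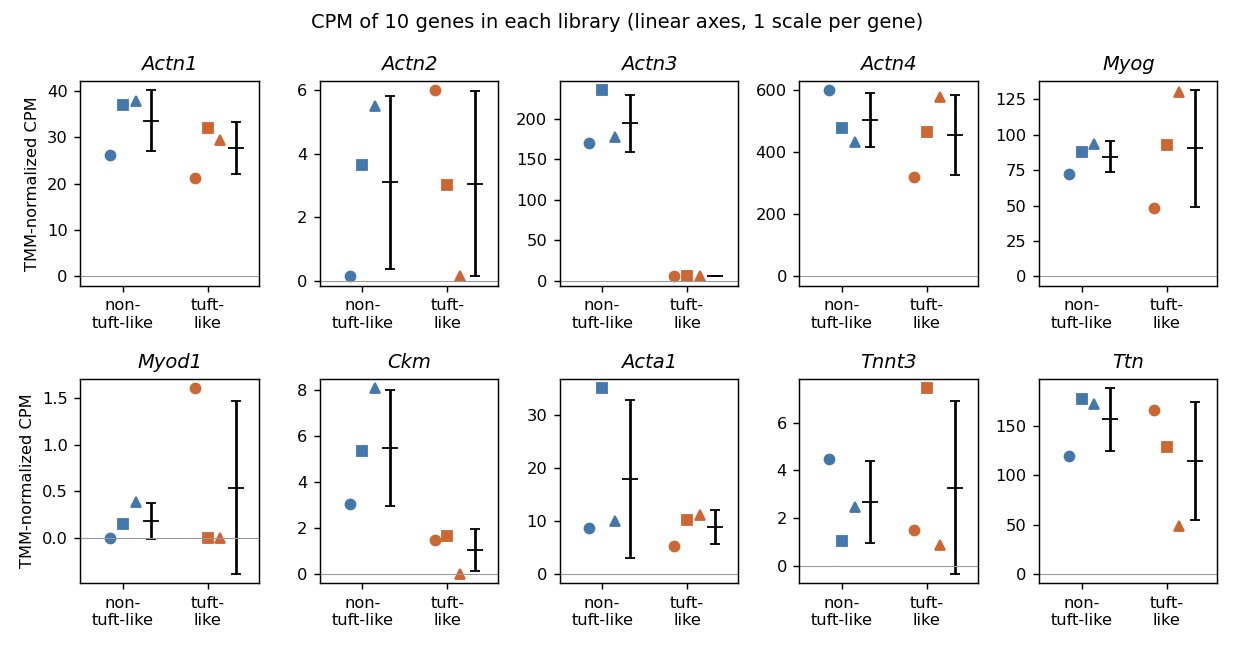
TMM-normalized CPM of the 10 genes, 1 panel per gene with its own linear axis. Blue points are non-tuft-like and orange points tuft-like libraries (circle, square and triangle for replicates 1, 2 and 3), and the black bars give the mean ± SD of 3 libraries. The groups are apart for Actn3 (170 to 235 against 5.69 to 6.16 CPM) and for Ckm (3.06 to 8.07 against 0 to 1.67 CPM) and overlap in the other 8 panels.

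Because alpha-actinins are close relatives, the coding sequences were compared to see how far short reads could be confused among them. Over the coding sequence of the longest protein-coding transcript, Actn3 was identical to Actn1 at 75.3%, to Actn2 at 75.3% and to Actn4 at 74.6% of aligned bases. The longest run that Actn3 shared with each of the others is shown here, 5′ to 3′ on the coding strand, since these are the stretches where a read would be hardest to place:
Actn2 and Actn3, 51 bases: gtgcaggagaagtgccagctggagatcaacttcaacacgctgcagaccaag
Actn1 and Actn3, 34 bases: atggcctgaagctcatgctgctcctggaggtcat
Actn3 and Actn4, 30 bases: gtgaccttccaagccttcattgacttcatg
Actn3 transcripts shared no stretch of 50 bases with those of Actn1 or Actn4, and only 2 such stretches, both in the 51-base run, with Actn2. The non-tuft-like libraries held 5377, 11031 and 5585 counts of Actn3 and 5, 171 and 173 counts of Actn2. Whether any reads were assigned to the wrong one of these genes was not tested.

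Per exon length, the make-up of the alpha-actinins differed between the groups. The sum of the 4 genes was 161, 166 and 140 CPM per exon kb in the non-tuft-like libraries and 59.8, 84.4 and 102 CPM per exon kb in the tuft-like libraries. Actn3 made up 36.4%, 48.7% and 43.8% of that sum in the non-tuft-like and 3.55%, 2.496% and 1.93% in the tuft-like libraries, with means of 42.9% ± 6.19 and 2.66% ± 0.821. Actn4 made up the larger part of the rest, at 52.6% ± 7.23 and 90.0% ± 2.71. Actn1 accounted for 3.94% ± 0.980 and 6.18% ± 0.841, and Actn2 for 0.547% ± 0.506 and 1.21% ± 1.32. In non-tuft-like mTEC the libraries of Actn3 (58.5 to 81.0 CPM per exon kb) overlapped those of Actn4 (70.2 to 97.6 CPM per exon kb). Levels between genes depend on the length used. With the longest annotated transcript in place of all exons, Actn3 stood at 67.2 and Actn4 at 129 CPM per kb in non-tuft-like mTEC, and Actn3 made up 32.6% ± 5.56 in non-tuft-like and 1.72% ± 0.542 in tuft-like mTEC.

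**Figure D2:**
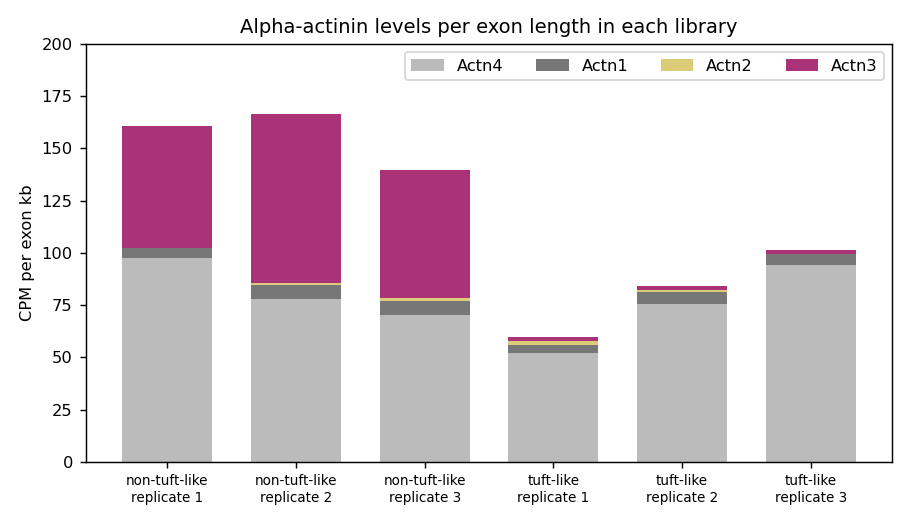
Levels of the 4 alpha-actinins in CPM per exon kb, stacked for each of the 6 libraries on an axis that starts at 0. The Actn3 segment fills 36.4% to 48.7% of the bar in the non-tuft-like and 1.93% to 3.55% in the tuft-like libraries, while the Actn4 segments of the groups overlap.

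Of the muscle regulators, Myog was present at a similar level in both populations and Myod1 was barely detected. Myog, the transcription factor that commits myoblasts to differentiate (chromosome 1, 134289989 to 134292548, plus strand), stood at 72.5, 87.9 and 93.5 CPM in the non-tuft-like and 48.2, 92.7 and 130 CPM in the tuft-like libraries. The tuft-like libraries spread around the non-tuft-like ones, with the lowest and the highest value both among them. The log2 fold change of 0.09 ± 0.36 was well within its error. It became -0.30 without tuft-like replicate 3 and 0.40 without tuft-like replicate 1, and was -0.03 with library size as the only scaling. Myod1, the factor that specifies muscle precursors (chromosome 7, 46376474 to 46379099, plus strand), had 0, 7 and 12 counts in the non-tuft-like and 39, 0 and 0 counts in the tuft-like libraries. It was at 0 in 3 of 6 libraries, and a count of 0 allows up to 0.0945, 0.0874 and 0.0828 CPM in those libraries (3 counts, counting error only). The groups overlapped, and Myod1 was too low in most libraries to enter the fit.

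Per exon length, the genes of the contractile cell stood below Myog in every library. Ckm, the creatine kinase of muscle (chromosome 7, 19404776 to 19422841, plus strand), stood at 3.06, 5.32 and 8.07 CPM in the non-tuft-like and at 1.49, 1.67 and 0 CPM in the tuft-like libraries. Ckm was the other gene of the 10 whose groups did not overlap, making 2 of the 9 in the fit, against 16% of all genes tested in either direction and 8.85% with lower tuft-like levels. Its log2 fold change of -2.38 ± 1.57 was -1.83 without tuft-like replicate 3, where it had no count, -4.45 after subtraction of background and -4.04 with limma voom. Acta1, the actin of skeletal thin filaments (chromosome 8, 123891769 to 123894751, minus strand), stood at 8.68, 35.04 and 10.01 CPM against 5.21, 10.1 and 11.2 CPM. Non-tuft-like replicate 2 alone was high, and the log2 fold change of -1.02 ± 0.67 was -0.08 without it.

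Tnnt3, the troponin T of fast fibres (chromosome 7, 142498836 to 142516009, plus strand), stood at 4.48, 1.04 and 2.48 CPM in the non-tuft-like and 1.49, 7.45 and 0.884 CPM in the tuft-like libraries. Tuft-like replicate 2 held the highest value and tuft-like replicate 3 the lowest, and the log2 fold change of 0.30 ± 1.26 turned to -1.17 without the former. Ttn, which encodes the giant spring of the sarcomere (chromosome 2, 76703980 to 76982547, minus strand), stood at 120, 178 and 173 CPM against 167, 128 and 48.8 CPM. Tuft-like replicate 3 was the lowest, the other tuft-like libraries lay within the range of the non-tuft-like ones, and the log2 fold change of -0.45 ± 0.41 was -0.13 without that library, -0.82 without tuft-like replicate 1 and -0.67 both with limma voom and with background subtracted. Of the 5 muscle genes in the fit, the lowest log2 fold change was thus that of Ckm, at -2.38 with the settings used throughout and as low as -4.45 with background subtracted (Actn3, -5.26), and the fold change of the fast-fibre gene Tnnt3 took either sign when single libraries were left out.

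Myogenic factors bind E-boxes in the promoters of muscle genes, so the promoters of the 10 genes were read for CAGCTG, an E-box that reads the same on both strands. RefSeq promoters (GRCm38.p6, 250 bases before to 50 after the start) were matched for 7 of the 10 genes, and 16.1% of 27025 such windows in the genome held the motif. No promoter was matched for Actn3, Myod1 and Tnnt3. The motif was found once in Ckm and once in Acta1 and not in Actn1, Actn2, Actn4, Myog or Ttn. The 250 bases before the start of the former pair are shown because these were the muscle genes with the lowest fold changes, with the motif in capitals, for Ckm at chr7:19410844-19411093 on the plus strand and for Acta1 at chr8:123894776-123895025 on the minus strand:
Ckm: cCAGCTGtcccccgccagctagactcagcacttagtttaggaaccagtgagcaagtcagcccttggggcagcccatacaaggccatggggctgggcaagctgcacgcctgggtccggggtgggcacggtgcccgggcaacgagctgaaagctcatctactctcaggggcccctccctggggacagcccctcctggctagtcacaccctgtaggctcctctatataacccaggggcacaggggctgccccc
Acta1: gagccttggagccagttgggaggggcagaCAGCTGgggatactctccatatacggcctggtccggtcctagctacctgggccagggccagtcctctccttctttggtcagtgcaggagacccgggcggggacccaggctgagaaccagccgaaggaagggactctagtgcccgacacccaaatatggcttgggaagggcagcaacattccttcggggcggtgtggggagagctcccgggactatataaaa
The motif starts 249 bases before the start of Ckm and 221 bases before that of Acta1. A match is a feature of the sequence and no evidence of binding in these cells.

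Put in order by level per exon length, non-tuft-like mTEC held Actn4 (81.9 CPM per exon kb), Actn3 (66.9), Myog (56.6), Acta1 (11.7), Actn1 (6.07), Ckm (1.88), Tnnt3 (1.69), Ttn (1.34), Actn2 (0.817) and Myod1 (0.0950). The first 3 overlapped with their neighbours and stood clear of Acta1, whose highest library reached 22.8 CPM per exon kb against 48.5 in the lowest library of Myog. In tuft-like mTEC the order was Actn4 (74.1 CPM per exon kb), Myog (60.4), Acta1 (5.75), Actn1 (4.99), Tnnt3 (2.07), Actn3 (2.06), Ttn (0.981), Actn2 (0.805), Ckm (0.361) and Myod1 (0.289). Actn4 and Myog again overlapped, and so did Acta1 and Actn1. Actn3 thus moved from beside Myog to beside Tnnt3. By length of the longest transcript, Actn4 stood at 129 and 117 and Actn1 at 8.99 and 7.39 CPM per kb, which put Actn1 above Acta1 (6.10) in tuft-like mTEC, and Tnnt3 (2.47) stood above Ckm in non-tuft-like mTEC.

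Against the background on olfactory receptor genes, the levels fell into 3 classes. Actn4, Actn1, Myog and Acta1 lay above the 99th percentile of olfactory receptor genes in all 6 libraries. Myog, for example, held 269, 295 and 146 times the mean olfactory level per exon length in the non-tuft-like and 51.4, 171 and 1240 times in the tuft-like libraries. Actn3 held 325, 407 and 142 times that level in the non-tuft-like and 3.38, 5.80 and 27.9 times in the tuft-like libraries, and lay above the 99th percentile in all but tuft-like replicate 1. The lowest multiples were in tuft-like replicates 1 and 2, the libraries with the higher background, while Actn3 in CPM was nearly equal in all 3. Actn2, Myod1 and Ttn lay above the 99th percentile in no library, Ckm in 2 non-tuft-like libraries and Tnnt3 in 1 library of each group. Ttn, which has 116825 bases of exons, collected up to 178 CPM at only 2.27 to 7.64 times the mean olfactory level, a level near background per length. With the background subtracted before the fit, the log2 fold change of Actn3 was -5.26.

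**Figure D3:**
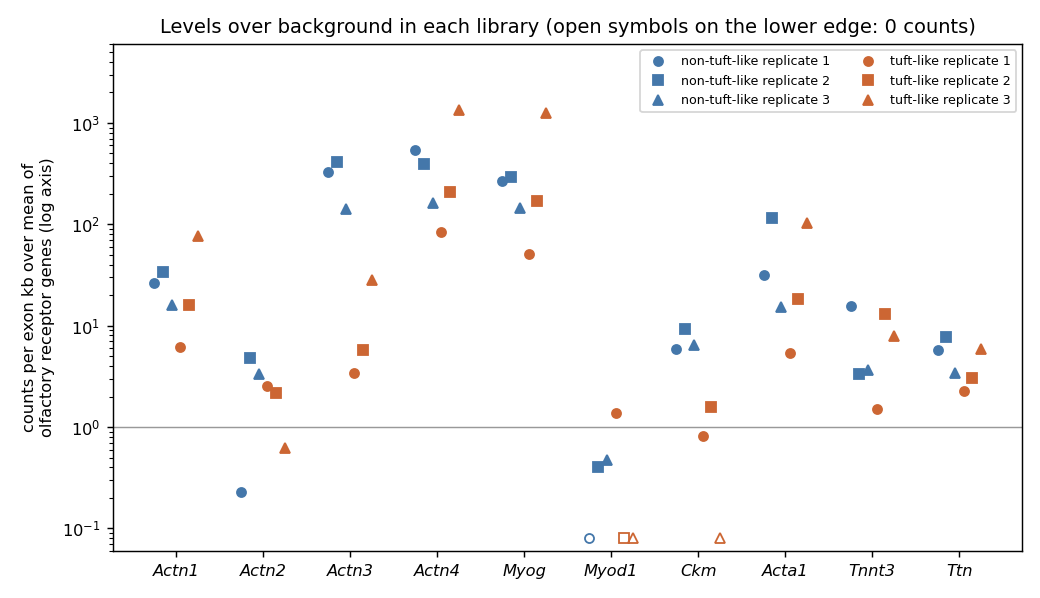
Counts per exon kb of the 10 genes divided by the mean of 1134 olfactory receptor genes in the same library, on a log axis. The line marks equality with background, and open symbols on the lower edge are libraries with 0 counts. Actn3 is at 142 to 407 in the non-tuft-like and 3.38 to 27.9 in the tuft-like libraries, whereas Myog lies between 51.4 and 1240 in all 6.

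Around these genes, 7 lists of muscle and heart genes held 87 further genes, of which 80 were tested. Only 3 of them differed between the groups at an FDR under 0.05 (3.75%, against 2.11% of all genes tested). Among these, 1 was higher in tuft-like mTEC (against 1.16% of all genes tested) and 2 were lower (against 0.951%). Msc, which encodes musculin, a repressor of the same helix-loop-helix family as Myod1, stood at 56.4, 66.5 and 58.5 CPM in the non-tuft-like and 3.80, 3.62 and 1.30 CPM in the tuft-like ones, with no overlap (log2 fold change -4.38 ± 0.49, edgeR FDR 0.00122). Synpo2, an actin-bundling protein of the Z-disc that smooth muscle also expresses, fell from 70.1 ± 8.35 to 19.1 ± 0.803 CPM (-1.88 ± 0.29, edgeR FDR 0.00752). Tnni3, the cardiac troponin I, rose from 9.40 ± 1.35 to 35.7 ± 10.8 CPM (1.92 ± 0.42, edgeR FDR 0.0459), a call that was lost when any 1 library other than tuft-like replicate 1 was left out. The 3 genes are on the lists of myogenic regulators, Z-disc proteins and heart genes.

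The median log2 fold change of the 80 genes was -0.52, against 0.02 over all genes tested, with 56 below and 24 above 0, against 15928 and 16568 of all 32496 genes tested. Of the 80 genes 9 had an unadjusted p under 0.05, as had 2914 of the 32496, a similar share. This median was not stable, at -0.16 without non-tuft-like replicate 3, -0.23 without tuft-like replicate 3, -1.002 without tuft-like replicate 1 and -1.47 with limma voom. By list, the median was 0.04 for 11 tested myogenic regulators, -0.53 for 8 genes of fast fibres, -1.46 for 10 of slow and developing fibres, -0.49 for 21 of the Z-disc and giant proteins, -0.34 for 18 of the neuromuscular junction and excitation-contraction coupling, -0.83 for 10 of energy metabolism and 0.14 for 6 of the heart, members included. Genes with the highest levels per exon length in these lists were measured in both groups. Jph1, which joins the membranes of the muscle triad, stood at 43.2 ± 13.9 and 36.4 ± 11.6 CPM and Chrnb1, a subunit of the muscle acetylcholine receptor, at 12.3 ± 6.61 and 13.7 ± 0.981 CPM. Pdlim3, an alpha-actinin-binding protein of the Z-disc, stood at 98.8 ± 23.8 and 64.3 ± 31.1 CPM and Fbp2, the muscle fructose bisphosphatase, at 18.2 ± 6.70 and 18.7 ± 6.83 CPM, neither of which passed the test.

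These medians moved in both directions when 1 library was left out. They ranged from -1.36 without tuft-like replicate 1 to -0.01 without tuft-like replicate 3 for the fast-fibre list, and between the same omissions from -2.30 to -0.93 for slow and developing fibres, from -0.82 to -0.07 for the Z-disc list and from -1.12 to -0.21 for energy metabolism. The neuromuscular list ranged from -0.75 without tuft-like replicate 1 to -0.07 without non-tuft-like replicate 3, and the heart list from -0.34 to 1.78 between those omissions. The median of the myogenic regulators took either sign, from -0.30 without tuft-like replicate 3 to 0.24 without tuft-like replicate 1. In tuft-like replicate 3, 44 of the 87 genes had 3 counts or fewer and 30 had none, against 2 to 11 and 2 to 9 genes in the other libraries. The list of fast-fibre genes summed to 63.2, 48.2 and 58.4 CPM in the non-tuft-like, to 48.9 and 51.3 CPM in tuft-like replicates 1 and 2 and to 1.38 CPM in tuft-like replicate 3. Myl1, a fast myosin light chain and the most abundant gene of that list, stood at 25.1, 15.7 and 15.2 CPM and at 4.05, 13.2 and 0.0550 CPM, and Mylpf, its regulatory partner, at 7.92, 5.58 and 5.63 CPM and at 4.51, 5.41 and 0 CPM. Both were lower in every tuft-like library and neither passed the test. Slow and developing fibre genes showed the same library, with sums of 50.01 and 52.4 CPM in tuft-like replicates 1 and 2 and 1.96 CPM in replicate 3, while Mybpc1 and Tnni1, their most abundant members, stood at 23.0 ± 11.7 and 10.8 ± 2.19 CPM in non-tuft-like and at 6.88 ± 5.497 and 2.43 ± 2.32 CPM in tuft-like mTEC. Myog in tuft-like replicate 3 was the highest of all 6 and Actn3 was like that of the other tuft-like libraries.

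Some further genes of the lists stood out without passing the test. Tnni2, the troponin I of fast fibres, singled out after its values were seen, had 72, 110 and 74 counts in the non-tuft-like and 0 in each of the tuft-like libraries, at least 73.5-fold lower against a floor of 3 counts over the group (0.0316 CPM), with an edgeR FDR of 0.123. In the non-tuft-like libraries Tnni2 held only 8.43, 7.86 and 3.66 times the mean olfactory level per exon length, above the 99th percentile in none. DESeq2, limma voom and the edgeR likelihood ratio test each called it lower. Tnnt2, the cardiac troponin T, stood at 15.6 ± 6.25 and 48.0 ± 16.1 CPM (edgeR FDR 0.104), and was called higher by DESeq2, by the likelihood ratio test and with no filter on low counts. Des, the muscle intermediate filament, and Pfkm, the muscle phosphofructokinase, stood at 22.04 ± 4.17 and 60.8 ± 10.2 CPM in non-tuft-like and at 8.39 ± 4.83 and 26.2 ± 12.9 CPM in tuft-like mTEC. Pfkm was called lower without tuft-like replicate 3. Mef2d and Trim63 were also singled out after their values were seen. Mef2d, a myogenic regulator, stood at 25.7 ± 5.45 and 58.8 ± 13.3 CPM (edgeR FDR 0.124). DESeq2 and the fit with background subtracted called it higher. Trim63, of the Z-disc list, stood at 7.21 ± 1.30 and 0.694 ± 0.983 CPM (edgeR FDR 0.604), and was called lower with background subtracted. In each of these genes the libraries of the groups did not overlap, which was so for 14 of the 80 list genes in the direction of lower and 5 in that of higher tuft-like levels, against 8.85% and 7.18% of all genes tested.

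**Figure D4:**
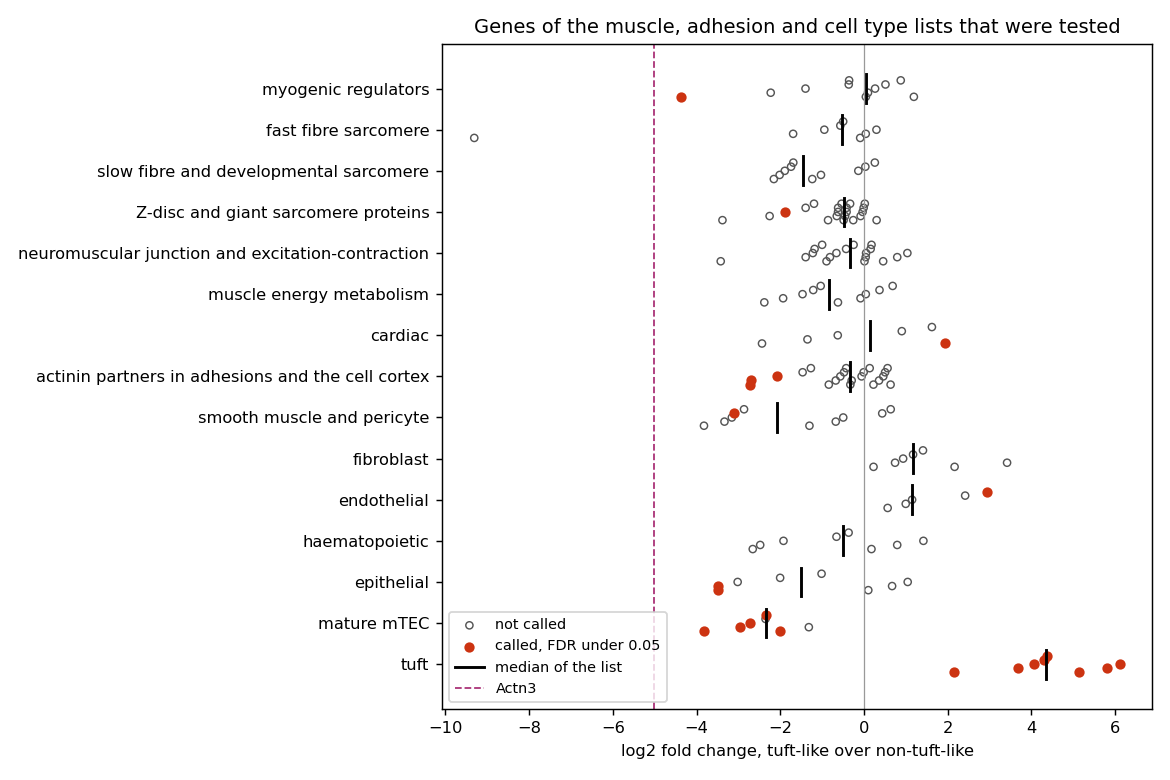
Log2 fold changes, tuft-like over non-tuft-like, of the tested genes of each list. Filled points passed an FDR of 0.05, bars mark the median of the list and the dashed line marks Actn3 at -5.02. The point near -9.31 is Tnni2, which had no count in the tuft-like libraries, and the tuft and mature mTEC lists, with medians of 4.34 and -2.35, are shown for scale.

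Alpha-actinins also work outside muscle, where they link actin to integrins, ICAM-1, vinculin and LIM proteins. All 21 genes of a list of such partners were tested and 3 fell, against 0.951% of all genes tested in this direction. They were Icam1, an adhesion receptor (383 ± 51.6 to 57.9 ± 6.40 CPM, log2 fold change -2.72 ± 0.28), Flna, the actin cross-linker filamin A (569 ± 122 to 88.2 ± 20.9 CPM, -2.69 ± 0.33), and Pdlim4, a LIM protein that binds alpha-actinin (150 ± 27.7 to 35.3 ± 5.48 CPM, -2.09 ± 0.28), at edgeR FDR values of 0.000886, 0.00207 and 0.00351. None rose, and the median of the list was -0.33, at -0.02 without non-tuft-like replicate 1 and -0.60 without tuft-like replicate 3. Itgb1, the beta 1 integrin, stood at 159 ± 31.0 and 234 ± 76.6 CPM and did not pass the test. In 8 of the 21 the tuft-like libraries all lay below the non-tuft-like ones, and in 1 all lay above, against 8.85% and 7.18% of all genes tested.

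Markers of other cells moved with the groups, and their part in the Actn3 result was not tested. The clearest were the genes of mature mTEC, 5 of 7 of which fell (against 0.951% of all genes tested) although both populations were sorted as CD80 negative and low for MHCII. They were Aire (292 ± 53.3 to 20.5 ± 2.56 CPM), Fezf2, a second regulator of tissue genes (231 ± 20.1 to 35.2 ± 6.80 CPM), Ciita, the activator of MHCII genes (174 ± 22.4 to 22.3 ± 7.37 CPM), H2-Aa (1793 ± 239 to 445 ± 221 CPM) and Cd74 (8821 ± 1020 to 1728 ± 704 CPM). The list summed to 11703, 12495 and 9993 CPM in the non-tuft-like and 1517, 1997 and 3330 CPM in the tuft-like libraries, with Cd74 as its most abundant gene. The calls of H2-Aa and Cd74 each depended on single libraries, being lost without replicate 2 of either group and without replicate 1 of the non-tuft-like mTEC, and H2-Aa also without replicate 1 of the tuft-like mTEC. Of the epithelial list 2 of 8 genes fell, against the same 0.951%, Krt14 (321 ± 49.6 to 28.5 ± 10.1 CPM) and Foxn1 (151 ± 12.4 to 13.5 ± 3.24 CPM), whereas Krt8, its most abundant gene, stood at 2465 ± 478 and 3924 ± 1507 CPM. Without tuft-like replicate 3, 4 of the 8 were called lower, Krt5 and Cldn4 being added, and with no filter on low counts also 4. Library size only, DESeq2 and limma voom called 3 lower and Krt18 higher, and background subtraction also called Krt18 higher.

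Among cells with a contractile program of their own, 1 of 10 genes of smooth muscle and pericytes fell, against 0.951% of all genes tested. This was Rgs5, a pericyte gene (104 ± 14.99 to 12.1 ± 7.86 CPM, log2 fold change -3.10 ± 0.53, edgeR FDR 0.0130). Acta2, Myh11 and Tagln, contractile genes of smooth muscle named after their values were seen, stood at 75.9, 101 and 11.5 CPM in non-tuft-like and at 5.38, 13.9 and 1.28 CPM in tuft-like mTEC. They did not pass the test, but DESeq2 and the likelihood ratio test called all 3, and limma voom, the fit with no filter on low counts and the fit without tuft-like replicate 3 called Acta2 and Myh11. In all, 4 of the 10 had an unadjusted p under 0.05, against 2914 of all 32496 genes tested, and 5 had no overlap on the lower side, against 8.85%. The median log2 fold change ranged from -3.14 without tuft-like replicate 1 to -1.58 without tuft-like replicate 3, and was -3.29 with limma voom and -3.33 with background subtracted. The list summed to 328, 480 and 439 CPM in the non-tuft-like and 183, 198 and 177 CPM in the tuft-like libraries, its median log2 fold change was -2.08, and its most abundant gene, Smtn, stood at 88.5 ± 1.53 and 120 ± 28.0 CPM. Of 7 fibroblast genes none was called by edgeR, by which 0 also had an unadjusted p under 0.05, with sums of 37.4, 31.8 and 61.1 CPM and of 165, 73.0 and 14.8 CPM and Dcn as the most abundant. Of 5 endothelial genes 1 rose, against 1.16% of all genes tested. This was Tek, a receptor of angiopoietins (23.4 ± 12.7 to 179 ± 42.4 CPM), and the list summed to 35.7, 63.7 and 37.9 CPM and to 338, 171 and 231 CPM. None of the 8 haematopoietic genes was called, with sums of 26.4, 47.9 and 36.5 CPM and of 66.2, 48.7 and 14.6 CPM and Ptprc as the most abundant, and 0 had an unadjusted p under 0.05. No gene of any of these lists was at 0 in all 6 libraries. The study marks haematopoietic cells by CD45 and epithelial cells by EpCAM1, and gated both populations as CD45 negative and EpCAM1 positive.

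At the Actn3 locus, none of the 9 other annotated genes within 50 kb passed the test. Ctsf, a lysosomal protease whose gene ends 298 bases from that of Actn3 on the other strand, stood at 85.4, 74.0 and 63.8 CPM in the non-tuft-like and 65.5, 83.5 and 95.1 CPM in the tuft-like libraries, a log2 fold change of 0.13 ± 0.28. Zdhhc24, a palmitoyltransferase that starts 759 bases from the start of Actn3 in the opposite direction, stood at 48.6, 47.0 and 48.2 CPM and at 39.3, 46.0 and 78.9 CPM (0.19 ± 0.32). Both overlapped between the groups. The log2 fold changes of the rest were 0.32 for Rbm14, 0.49 for Ccs, -0.30 for Bbs1, -0.27 for Dpp3, 1.58 ± 0.73 for Gm21992 and -1.16 ± 0.92 for Ccdc87. That of the small RNA gene Gm25334, at 35 counts or fewer per library, was -0.86. Gm21992 and Ccs were higher in every tuft-like than in any non-tuft-like library, as were 7.18% of all genes tested, and the other neighbours overlapped. All 9 genes lay above the -5.02 of Actn3 by more than their errors.

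**Figure D5:**
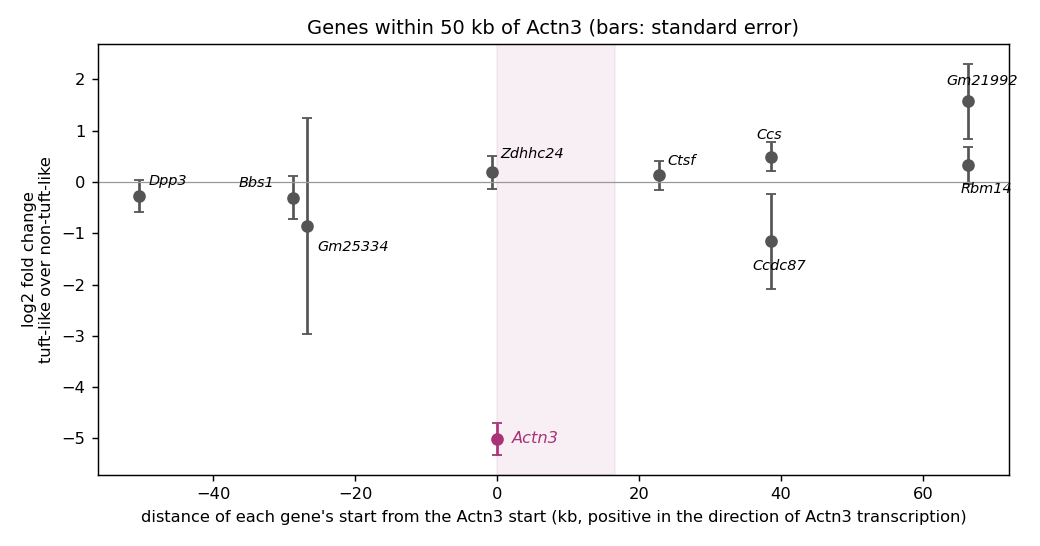
Log2 fold change of Actn3 and of the 9 annotated genes that lie within 50 kb of it, plotted at the distance of each start from the Actn3 start. Bars are standard errors and the shaded band is the Actn3 gene. The neighbours lie between -1.16 and 1.58, with Zdhhc24 and Ctsf, the nearest, at 0.19 and 0.13, and Actn3 at -5.02.

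The genes most like Actn3 over the 6 libraries were looked for among 11592 genes that averaged 10 CPM or more, a limit that leaves out Ckm, Tnnt3, Actn2 and other contractile genes. Ranked by Pearson's r of log2 CPM, the closest were Phgdh, the first enzyme of serine synthesis (r = 0.9996, 210 against 20.1 CPM), Dsc3, a desmosomal cadherin (r = 0.9992, 183 against 30.2 CPM), Tfdp1, a partner of E2F factors (r = 0.9984, 64.4 against 25.9 CPM), Aldh3b3, an aldehyde dehydrogenase (r = 0.9971, 124 against 6.99 CPM), and Id1, an inhibitor of helix-loop-helix factors (r = 0.9971, 31.8 against 8.74 CPM). With 3 libraries high and 3 low, the gap between the groups sets these values of r, and the points share the depth and background of each library.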

How the data were processed

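Total RNA of both populations, 3 libraries each, was amplified from ultra-low input and sequenced. The authors used Trimmomatic 0.36 for trimming, STAR 2.7.3a for alignment to mm10 and HTSeq (intersection-nonempty) for counting, and deposited whole read counts per gene without normalization. The strand setting and annotation release are not given in the sources used here, so reads of a gene and of one overlapping it on the other strand cannot be told apart, which touches 451 bases of Actn1, 316 of Actn4, 451 of Ckm and 453 of Ttn. For the RNA, the study names trizol as the sort medium whereas the labels give a column kit. The table holds 52636 gene rows, 92 rows of ERCC controls, all at 0, and 5 rows of reads assigned to no single gene, which were kept out of library sizes. Gene names, exon lengths and overlaps came from GENCODE M21 (mm10), and 147 gene rows had no match.

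Counts were filtered with filterByExpr (minimum count 10, minimum total 15), scaled by TMM and tested with edgeR 4.0.16 (R 4.3.3), with the population as the only term, at an FDR of 0.05. Standard errors are the absolute log2 fold change over the square root of F. Depths of 20097617 to 48369825 counts on genes put the limit that a count of 0 allows (3 counts) at 0.0638 to 0.123 CPM after TMM scaling, for counting error only. An exact permutation test on 3 and 3 libraries has 0.10 as its smallest p, so none was run. Alternatives were RLE factors, library size only, DESeq2 1.42.0, limma voom 3.58.1, the likelihood ratio test, other filters, background subtraction, a block for replicate number, the omission of each library and an FDR of 0.01. DESeq2 was run without the filterByExpr filter and with its own default filter on mean counts. Pairing was checked by the correlation of same-numbered libraries after removal of their group means. No 2 libraries agreed within sampling noise. For likeness to Actn3, log2(CPM + 0.5) was used.

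The 10 genes and all lists were chosen with earlier results of these data known. Beside the 10 genes, the rule named, from each muscle or adhesion list, every called gene (at most 4 per direction) and the 2 with the highest level per exon length, from each cell type list the most abundant, the called and those at 0, the 5 genes most like Actn3 and all within 50 kb of it. Tnni2, Mef2d and Trim63 were added after their values were seen. A gene that the rule selects is not reported here.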

Additional observations from a re-analysis of the deposited data

Results flagged for a closer look

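Reads that met no annotated feature, reads in introns among them, were used in none of the comparisons. In tuft-like replicate 1 they made up 61.6% of the reads in all rows, above the 34.4% to 52.5% of the non-tuft-like libraries. They were 47.6% in tuft-like replicate 2 and 19.7% in tuft-like replicate 3, so the groups overlapped. Actn3 stood at 6.16, 6.11 and 5.69 CPM in these 3 libraries.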

How the results depend on the processing

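Msc and Synpo2 kept their direction and their side of the threshold in every alternative run. The log2 fold change of Actn3 lay between -5.26 and -4.86, a range given as a description since its contrast was in view when it was chosen. The count of genes that differed was 687. It became 1045 with library size only, 1236 with the likelihood ratio test, 1055 after background subtraction and 319 at an FDR of 0.01. Without the filterByExpr filter, 47762 genes had a fold change, and the count was 1127 with edgeR and 2023 with DESeq2. DESeq2 applied its own filter on mean counts before the adjustment, so it changed test and filter together. With 1 library left out it lay between 376 (without tuft-like replicate 2) and 922 (without tuft-like replicate 3), the next lowest being 379 without non-tuft-like replicate 2. Without tuft-like replicate 3 the split turned from 378 higher and 309 lower to 310 higher and 612 lower. The count of muscle list genes, 3, became 5 both with the likelihood ratio test and with background subtraction, and 2 to 3 with 1 library left out. Without the filterByExpr filter, 87 list genes had a fold change, and the count was 4 with edgeR and 6 with DESeq2. The replicate numbers do not pair the libraries (correlations of -0.156, -0.061 and -0.326), and with the number as a block 737 genes and 2 muscle list genes (not Tnni3) were called, the calls of H2-Aa and Cd74 were lost, Acta2 and Myh11 were called, and the median of the 80 muscle and heart genes was -0.90. Libraries correlated best with another number. Changes of sign, all in genes that were not called, were Fbp2 at -0.0411 with library size only and -0.0482 at 1 CPM, and Dcn at -0.25 with voom and -0.0949 with the block. With 1 library left out, Fbp2 ranged from -0.31 to 0.39, Dcn from -0.14 to 0.66, Chrnb1 from -0.19 to 0.64, Rbm14 from -0.16 to 0.51, Ccdc87 from -1.65 to 0.35, Ctsf from -0.0384 to 0.27, Zdhhc24 from -0.21 to 0.39, Bbs1 from -0.64 to 0.13 and Gm25334 from -1.40 to 0.44. Actn2, Actn4, Myog and Tnnt3 also crossed 0, moving by less than their standard errors except for Tnnt3 at -1.17 without tuft-like replicate 2 and Myog at -0.30 without tuft-like replicate 3. The median log2 fold change of all genes tested moved from 0.02 to -0.17 with voom. Without the filter on low counts it was 0.05 with edgeR and 0.13 with DESeq2. These moves were small against the log2 fold change of Actn3. The causes were not tested. Myod1 was below the filter on low counts, at 0 in 3 libraries.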
